A study of Rattus norvegicus with 8 samples.

Results

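The transcripts described here are the predicted noncoding records of RefSeq, taken as every noncontrol probe whose accession begins with XR_. They numbered 1702 of the 24684 noncontrol probes on the array, 1 probe for each accession. An XR_ record is a model transcript that NCBI's annotation pipeline derives from a genome assembly and from aligned evidence, and for which it finds no protein-coding frame that it keeps. The class is mixed: it holds models of long noncoding RNAs beside models of transcribed pseudogenes, whose sequence can be close to that of a coding gene. Curated coding transcripts carry the prefix NM_ and curated noncoding ones NR_. Models are withdrawn or replaced as assemblies and evidence improve, so an XR_ accession on an older array names a prediction, not an established gene.

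The series profiled rat skin, taken in its full thickness from male Sprague-Dawley animals, on 1-colour Agilent arrays. Rats of 4 weeks received streptozotocin (STZ), which destroys insulin-producing beta cells, by intraperitoneal injection at 60 mg/kg, or a sham injection of the citrate vehicle. Skin was taken 4 weeks later, at 8 weeks of age. A cutaneous wound is mentioned in the labels too, but the sources used here do not say if the skin on the arrays was wounded, nor if the RNA on an array was pooled from several rats.

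The labels list 4 samples per group, but within a group replicate 3 was a second scan of the array of replicate 1, and replicate 4 of that of replicate 2. The log2 signals of such a pair differed with an SD of 0.0979 to 0.139 over all tested probes, whereas any other pair within a group differed with an SD of 0.893 to 1.17. The scans were averaged into 4 arrays, called sham A (replicates 1 and 3), sham B (2 and 4), STZ A (1 and 3) and STZ B (2 and 4), and every comparison below is of 2 arrays with 2. STZ B was the dimmest array. The 75th percentile of its spots was 606 and 624 intensity units in its scans, against 1138 to 1496 in the other samples, and no XR_ spot was saturated in any file. Skin markers were bright: Krt14, the keratin of basal epidermis, lay at 7.15, 5.54, 7.27 and 7.35 on sham A, sham B, STZ A and STZ B, and the collagen gene Col1a2 at 7.22, 7.31, 7.21 and 8.08. Levels throughout are log2 signals less the 75th percentile of that file, so that 0 is the brightness of the 75th percentile itself. Cell type markers differed widely between the groups, with all 8 tested hair follicle genes lower in STZ (median change -6.06 on the log2 scale, less the median change over all tested probes as in every change below, summed linear level 648 and 625 on the sham arrays against 93.1 and 5.16 on STZ A and STZ B). The 4 tested T and NK cell genes (median 3.21), the 4 neutrophil genes (4.17) and the 5 macrophage genes (2.84) were all higher. The part of these cell types in the values below was not tested, and in whole skin fewer cells of a type and less RNA per cell cannot be told apart.

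Most predicted noncoding transcripts gave signal in skin, but less often than coding ones. On sham A 79.4% of the 1702 members were well above background in both scans, on sham B 76.1%, on STZ A 81.8% and on STZ B 90.8%. The NM_ probes stood at 87.7%, 86.3%, 89.2% and 94.6% on the same arrays. STZ B, the array with the lowest raw brightness, had the highest share in both classes. On all 4 arrays 1247 members were well above background, or 73.3%, against 83.7% of NM_ probes. On none of the arrays were 134 members (7.87%), against 3.81% of NM_ probes. A further 142 members (8.34%) were well above background on STZ B alone, against 5.14% of NM_ probes, whereas STZ A alone detected 1. Both STZ arrays and neither sham array detected 38 members (2.23%, NM_ 1.76%), and both sham arrays and neither STZ array detected 2 (0.118%, NM_ 0.150%). The detection flag asks only whether a spot stands out from its background and says nothing of what hybridised there.

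The members were dim as a class, with a small bright tail. Their median level over the 4 arrays was -3.53, against -1.16 for the 15321 NM_ probes and -2.64 for the 27 NR_ probes. The median was -3.95 on sham A, -4.0 on sham B, -3.65 on STZ A and -2.63 on STZ B. Levels of different probes also reflect each probe's own binding, so these are distributions of brightness and not of abundance. The bright end went the other way: 6.29% of the members had a mean level of 4 or more, against 4.20% of NM_ probes, as the histogram of levels shows.

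**Figure D1:**
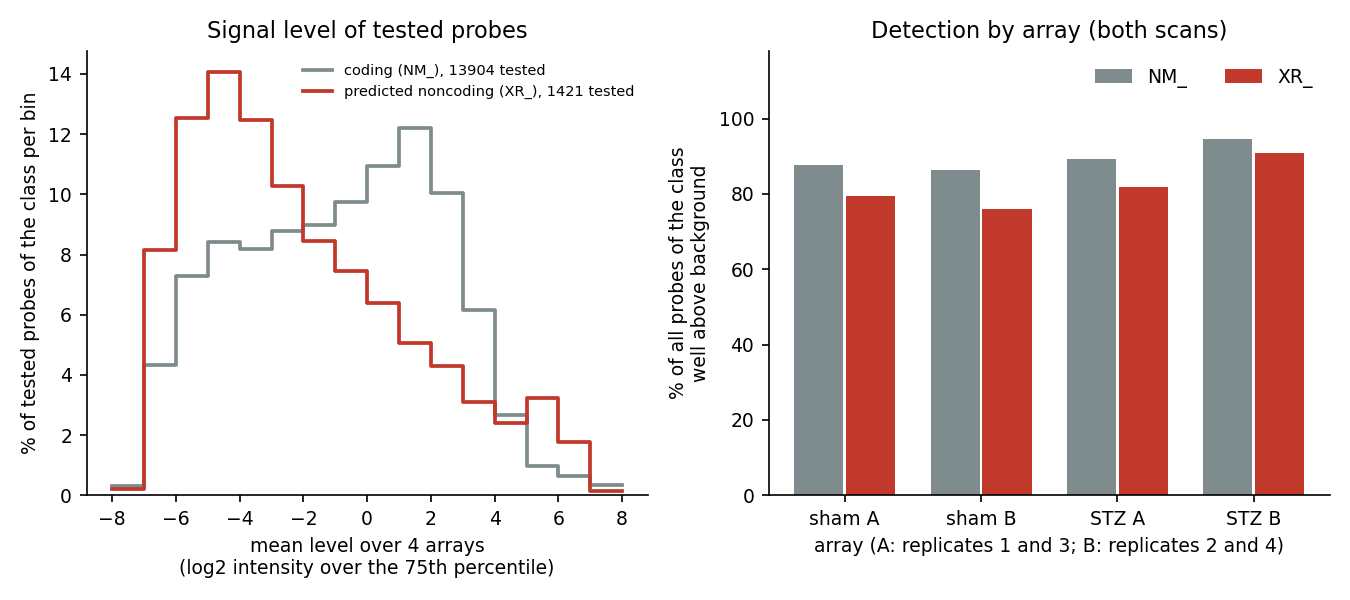
Left, mean levels (log2 signal less the 75th percentile, mean of 4 arrays) of tested XR_ and NM_ probes, as a percentage of the tested probes of the class per bin. Right, the percentage of all probes of each class well above background in both scans of each array. XR_ probes sit lower, with a second, smaller rise above a level of 5, were detected less often on each array, and both classes are highest on STZ B.

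The measurements of most members within an array were tight. Of the 1702 probes, 1698 were printed in 3 spots and 4 in 10 spots, and the median SD between the spots of a tested member with 3 spots was 0.101, against 0.111 for other probes with 3 spots and like signal. The 90th percentile of that SD was 0.502 in these members and 0.490 in the other tested probes with 3 spots. The median difference between the 2 scans of an array was 0.029. Arrays of 1 group differed far more. Once the offset common to all probes was removed, the median difference was 0.45 between the sham arrays and 0.84 between the STZ arrays, against 0.46 and 0.79 in NM_ probes of like signal. Here and below, like signal means that the NM_ value was weighted to the members' own distribution over bins of mean level 1 log2 unit wide. The median spread between arrays was thus larger than that between spots or scans.

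Of the members, 1421 passed the filter of at least 4 of the 8 files well above background and were tested among 21530 probes. The other 281 were not tested (134 well above background on no array and 147 on 1). No member passed limma's moderated test after Benjamini-Hochberg adjustment over all tested probes, where 0% of all tested probes passed too. The smallest adjusted p was 0.102 in the members and 0.0761 over all. At an unadjusted p under 0.05, 109 members were higher in STZ, or 7.67%, beside 7.32% of all tested probes and 9.01% in NM_ probes of like signal. Only 14 were lower, or 0.985%, beside 3.53% of all and 3.78% in NM_ probes of like signal. The count of higher members is thus near the background, and that of lower members under it. Leaving out 1 array moved the count of higher members, and it moved the share of all tested probes called higher too. Such fits leave a group with 1 array, so their counts are not given here but only with the processing alternatives further below. With normexp background correction and quantile normalization the split was 45 higher (3.17%, beside 5.33% of all tested) and 25 lower (1.76%, beside 6.31%). With quantile normalization alone it was 79 higher (5.56%, beside 5.73%) and 29 lower (2.04%, beside 5.35%). The higher share of the calls thus went from 88.6% to 64.3% and 73.1%.

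The median change over all tested probes, which is subtracted from each change given, lay 0.23 higher in STZ on the 75th percentile scale and 0.04 lower (-0.04) after quantile normalization. Over the 1421 tested members the median change was 0.18, beside 0.12 in NM_ probes of like signal and -0.11 in all NM_ probes. The members' median was 0.26 without sham A, 0.21 without sham B, 0.37 without STZ A and 0.09 without STZ B, and 0.07 with normexp and quantile normalization. Its difference from NM_ probes of like signal, 0.06, became 0.14, 0.10, 0.14 and 0.06 without these arrays, and 0.01 with bins by the mean of the sham arrays. The quartiles of the members were -0.22 and 0.84. The groups did not overlap, with both STZ arrays above both sham arrays, for 440 members (31.0%, beside 26.9% of all tested and 30.1% in NM_ of like signal). The reverse order without overlap was seen in 112 members (7.88%, beside 17.9% and 16.1%). A change of 1 or more was found upward in 290 members (20.4%, beside 15.5% and 19.7%) and downward in 42 (2.96%, beside 9.22% and 9.27%). Upward shares were thus close to those of coding probes of like signal on each of these measures, while each downward share was under theirs. The share of members called lower was also below that of like-signal NM_ probes in each of the other normalizations, filters and left-out arrays that were run. The median size of change, whatever its sign, was 0.48 in the members and 0.63 in NM_ probes of like signal. With only the first spot of each probe it was 0.476 and 0.626, without STZ A 0.877 and 0.949, without STZ B 0.298 and 0.411, and with normexp and quantile normalization 0.218 and 0.290.

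The change of a member varied with its brightness. The 497 tested members with a mean level below -4 had a median change of 0.79, and the 2826 NM_ probes of that range 0.76. Between -4 and 0 the 549 members had a median of 0.09 (NM_ -0.13), and between 0 and 4 the 268 members one of -0.28 (NM_ -0.35). The 107 members at 4 or more had a median of 0.05 (NM_ -0.08). Dim members of both classes were therefore higher in STZ by about the same amount. For the dim members that amount rested on 1 array and on the scale: it was 0.23 on the log2 scale without STZ B (0.20 in NM_ probes), 0.22 after quantile normalization and 0.07 with normexp and quantile normalization.

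**Figure D2:**
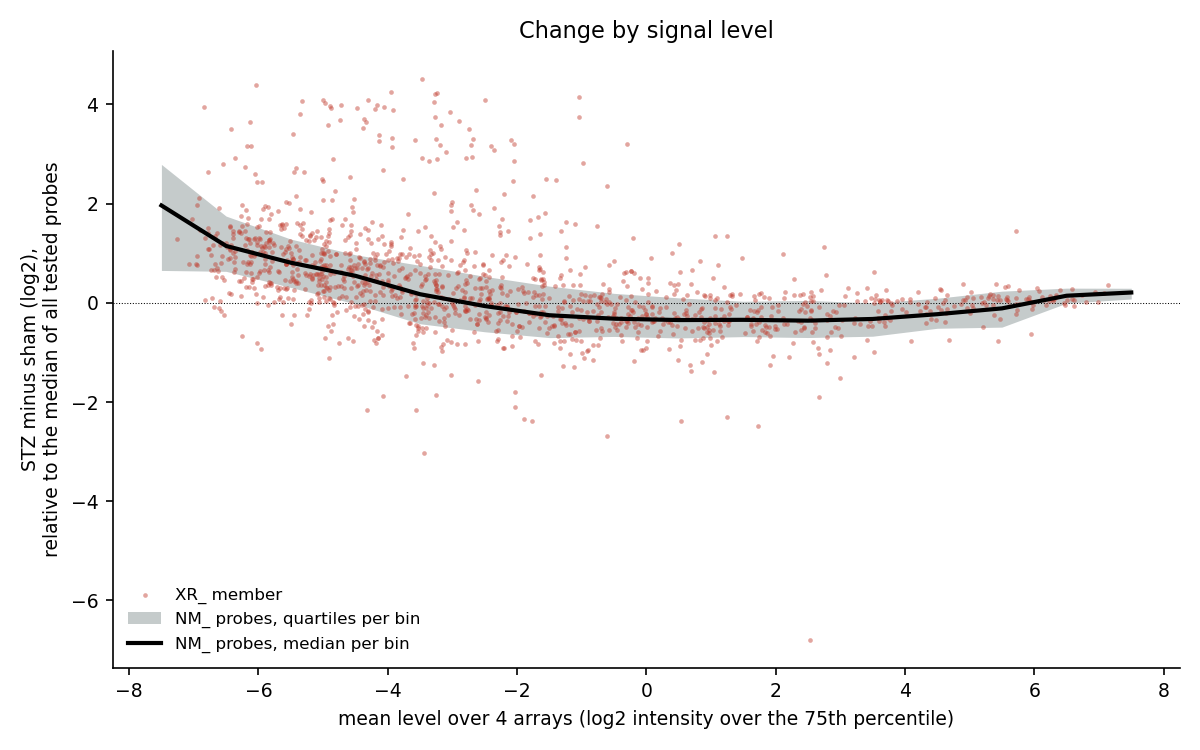
Change in STZ against sham (log2, less the median of all tested probes) against mean level for the 1421 tested XR_ members, each point 1 member, with the median (line) and quartiles (band) of NM_ probes per bin of level. The members' median goes from 0.79 below a level of -4 to -0.28 between 0 and 4, beside 0.76 and -0.35 in NM_ probes, and members at 4 or more lie close to 0.

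Among the 10 members with the smallest p and higher signal in STZ, the separation of the groups was wide for 2. XR_007207 lay at -5.80 on sham A, -6.58 on sham B, -1.76 on STZ A and -1.66 on STZ B. Both STZ arrays stood about equally far above both sham arrays. The change was 4.25 ± 0.48 (SE, n = 2 arrays per group, limma, adjusted p = 0.102). XR_008986 lay at -4.44, -4.87, -0.70 and 0.03 on the same arrays, a change of 4.09 ± 0.49 (adjusted p = 0.102). In both, the gap between the groups was over 5 times the gap between arrays of 1 group. These 2 members had a limma adjusted p of 0.0407 when each array was centred on its own median of tested probes. It was the only scaling of the 4 arrays under which members passed. Under it 124 of all 21530 tested probes passed, with a lowest adjusted p of 0.0147, beside 2 of the 1421 members.

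The other 8 had smaller changes. XR_006638 had the tightest values, -4.48 and -4.51 on the sham arrays and -2.05 and -2.06 on the STZ arrays, a change of 2.21 ± 0.41 (limma, adjusted p = 0.160). XR_008800 lay at -4.63, -4.82, -1.85 and -1.07 (change 3.04), and XR_009032 at -4.33, -5.35, -1.41 and -0.50 (change 3.66). In each of these 3 the lower STZ array was more than 2 log2 units above the higher sham array. XR_009487, the brightest of the 10, lay at -2.0 and -3.02 on the sham arrays and 0.76 and 0.33 on the STZ arrays, a change of 2.83 ± 0.54. XR_009486, the neighbouring accession number, lay at -4.97, -6.28, -2.53 and -1.98, a change of 3.14 ± 0.61, and XR_009482 at -4.45, -5.60, -1.88 and -1.11, a change of 3.31 ± 0.60. These 3 accessions lie close together in number, though whether their loci are neighbours was not analysed here. XR_008266 had values of -4.29, -5.86, -1.0 and -1.53 (change 3.58). XR_007513 had values of -6.54, -7.25, -4.24 and -3.79 (change 2.65), was well above background in only 2 of its 4 sham files, and had a change of 0.53 with normexp and quantile normalization. The adjusted p of the 10 ran from 0.102 to 0.172, so none passed.

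Among the 10 with lower signal in STZ, XR_007366 had the largest change. It lay at 6.30 on sham A, 5.33 on sham B, 1.76 on STZ A and -3.27 on STZ B. It was among the bright members on the sham arrays, and the STZ arrays lay 5.02 log2 units apart. The change of XR_007366 was -6.79 ± 1.67 (limma, adjusted p = 0.265), and it ran from -9.46 to -4.09 over the other settings. The summed level of the hair follicle markers was lower on STZ B than on STZ A, as were 7 of the 8 genes, while Msx2 lay at -0.64 on STZ A and -0.04 on STZ B. Whether XR_007366 is linked to hair follicles was not tested. XR_007295 had the smallest p of the 10, with values of 0.01 and 1.23 on the sham arrays against -1.77 and -1.91 on the STZ arrays, a change of -2.69 ± 0.57 (adjusted p = 0.231). XR_008690 and XR_009382 had nearly the same values, -1.06, -0.62, -2.52 and -3.39 in the first and -1.24, -0.93, -2.52 and -3.40 in the second. Their changes were -2.34 and -2.10.

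XR_008772, a brighter member, lay at 3.42 and 3.60 on the sham arrays and 2.17 and 1.5 on the STZ arrays, a change of -1.90 ± 0.47. XR_009241 lay at 1.90, 2.66, 0.59 and -0.17 (change -2.30). In each, both sham arrays stood more than 1 log2 unit above both STZ arrays. XR_006781 (-1.38, -1.10, -2.77 and -2.87) and XR_006624 (-1.89, -1.95, -3.42 and -3.12) had smaller changes, -1.81 and -1.58, with arrays of 1 group within about 0.3 of each other. XR_007410 lay at -2.41, -2.78, -5.03 and -4.02 (change -2.16). XR_009288 lay at -1.65, -2.45, -3.81 and -5.87 (change -3.02), and 3 of its 4 STZ files were well above background. Adjusted p-values of the 10 ran from 0.231 to 0.361. Of the 42 members lower by 1 or more, 2 were lower by 3 or more, XR_007366 and XR_009288.

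**Figure D3:**
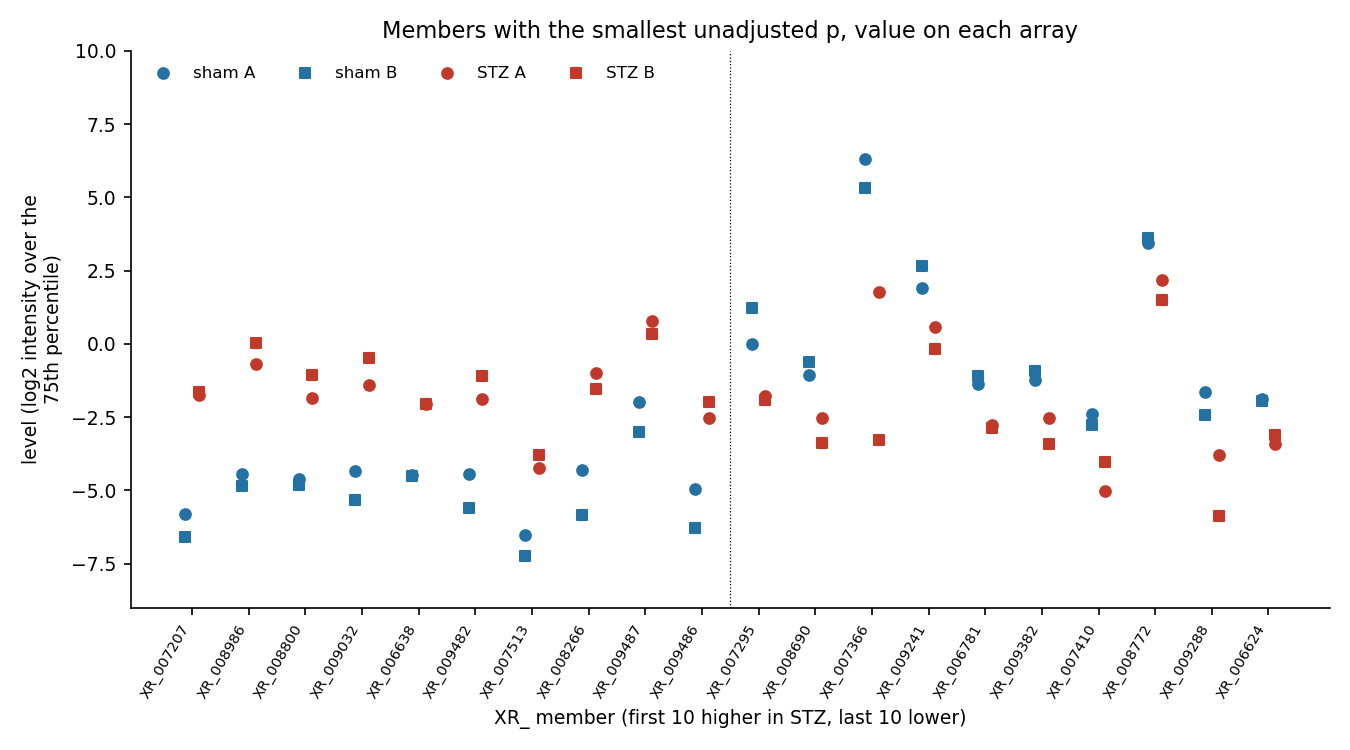
Levels (log2 signal less the 75th percentile) on sham A, sham B, STZ A and STZ B for the 10 XR_ members with the smallest p each way, 1 column per member and 1 point per array. The groups do not overlap in any of the 20 by the rule that chose them, and XR_007366 goes from 6.30 on sham A to -3.27 on STZ B.

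Some members had only a bound on the sham side. In 21 tested members no sham file was well above background, and no tested member lacked all STZ files. The filter of 4 files fixes that all 4 STZ files of these 21 were well above background. Their share over all tested probes was not counted, so the 21 have no background to be judged by. The detection rule by arrays gives another set, 38 members found on both STZ arrays and neither sham array. These were 2.23% of all members, beside 1.76% of NM_ probes. Taking the higher of the member's own signal and the dimmest probe well above background on each sham array, XR_006921 was at least 9.06-fold brighter in STZ, and XR_006934 at least 8.50-fold. Their measured mean levels were -8.06 and -7.81 in sham and -4.19 and -4.42 in STZ. In both, STZ B was about 3 log2 units above STZ A (-2.46 against -5.91 in XR_006921, and -2.90 against -5.93 in XR_006934), so the bound takes much of its size from that array. Limma's adjusted p was 0.381 and 0.350.

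The bright members differed least between the groups. The 10 brightest (XR_008756, XR_006879, XR_008965, XR_007454, XR_007305, XR_005994, XR_006769, XR_007040, XR_007848 and XR_008889) had mean levels from 7.13 to 6.58. XR_008756, the brightest, lay at 6.96, 6.72, 7.05 and 7.80, a change of 0.36 ± 0.48. XR_008965 lay at 7.04, 6.69, 7.29 and 6.91, a change of 0.01 ± 0.44. Changes of the 10 ran from -0.06 to 0.36, within their standard errors. Over the 107 members at 4 or more, 102 (95.3%) were within 0.5 of the median of all probes, against 64.1% of the 644 NM_ probes at 4 or more. The median level was 5.43 in these members and 4.79 in these NM_ probes, which were thus less bright. The median size of change was 0.10 in the members and 0.35 in the NM_ probes. By level it was 0.13 and 0.41 between 4 and 5, 0.10 and 0.38 between 5 and 6, and 0.07 and 0.19 between 6 and 7. Between 7 and 8, with 2 members, it was 0.28 and 0.21. Coding probes for ribosomal proteins, the structural proteins of the ribosome, were set beside the bright members after these values were seen. Of the 62 at 4 or more, 98.4% were within 0.5 of that median, and 60.5% of the other NM_ probes that bright.

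Many of the members with the largest upward change shared 1 pattern over the arrays. A change of 3 or more was found in 53 members, 3.73% of those tested and beside 1.74% of all tested probes. In 39 of these the arrays stood in the order sham B, sham A, STZ A, STZ B, from lowest to highest, a pattern whose limits (sham A at least 0.8 above sham B, STZ B at least 2.5 above STZ A) were set after the values were seen. These 39 are 2.74% of the tested members, beside 0.194% of NM_ and 0.441% of all tested probes. Relative to each member's own mean, the medians were -0.84 on sham A, -3.03 on sham B, 0.24 on STZ A and 3.83 on STZ B, with SDs between members of 0.27 to 0.41. XR_006875, with the largest change of all members, lay at -4.52, -7.17, -2.88 and 0.68. XR_006351 lay at -2.48, -3.99, -0.44 and 2.73, and XR_007715 at -5.19, -7.92, -4.16 and -0.63. In each of the 3 the step from STZ A to STZ B was larger than that from sham A to STZ A. The median change of the 39 was 3.81, and 2.20 without STZ B. It was 1.84 with normexp and quantile normalization. Only 15 of the 39 were well above background in all 8 files, as were 5 of the 27 NM_ probes with this pattern. At an unadjusted p under 0.05, 35 of the 39 were called, which is 35 of the 109 members called higher. A change of 3 or more was a condition of the choice, so calls follow largely from it. Of all 95 tested probes with this pattern 87 were called, and of the 27 NM_ probes 24. The lowest limma adjusted p among the 39 members was 0.295. None of the 10 members named above for higher signal was among the 39.

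A second pattern, also delimited after the values were seen, separated the sham arrays only. Its limits were sham A at least 2.3 above sham B, and STZ A less STZ B from -0.5 to 1.2. In 16 members (1.13% of those tested, beside 0.259% of NM_ and 0.334% of all tested probes) sham A was 2.43 to 3.27 above sham B while the STZ arrays differed by less than 1. The gap between the sham arrays was 2.91 ± 0.25 (SD over the 16 members). Relative to each member's mean, the medians were 1.56 on sham A, -1.37 on sham B, 0.12 on STZ A and -0.28 on STZ B. XR_009613, the brightest, lay at 4.32, 1.89, 3.0 and 2.67, and XR_006486, the dimmest, at -3.17, -6.44, -5.03 and -5.05. The members within these limits ranged over nearly 8 log2 units of brightness. All 16 were well above background in all 8 files. Their changes ran from -0.73 to 0.78, and none had an unadjusted p under 0.05 (limma). The gap between sham arrays by which they were chosen enters their standard errors, so few calls could arise.

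Single members differed between arrays of 1 group by far more than the groups did. XR_006359 lay at -2.99 on sham A, 7.28 on sham B, 7.01 on STZ A and -3.33 on STZ B. It was thus among the brightest probes on 1 array of each group and dim on the other, and its change was -0.53 ± 4.63. XR_008609, at -6.82, 1.35, -0.24 and -6.35, was likewise brighter on sham B and STZ A than on the other arrays. XR_006646 stood out on sham B alone (-6.91, 0.19, -6.62 and -3.96), and XR_007846 on STZ B alone (-4.81, -5.27, -5.05 and 1.25). Once the offset common to all probes was removed, the arrays of both groups were at least 3 log2 units apart in 7 tested members (0.493%, beside 0.153% of all tested probes). The sham arrays were that far apart in 22 (1.55%, beside 0.952%) and the STZ arrays in 63 (4.43%, beside 1.59%). Members of the first shared pattern, such as XR_005798 and XR_009647, are part of each of these counts.

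**Figure D4:**
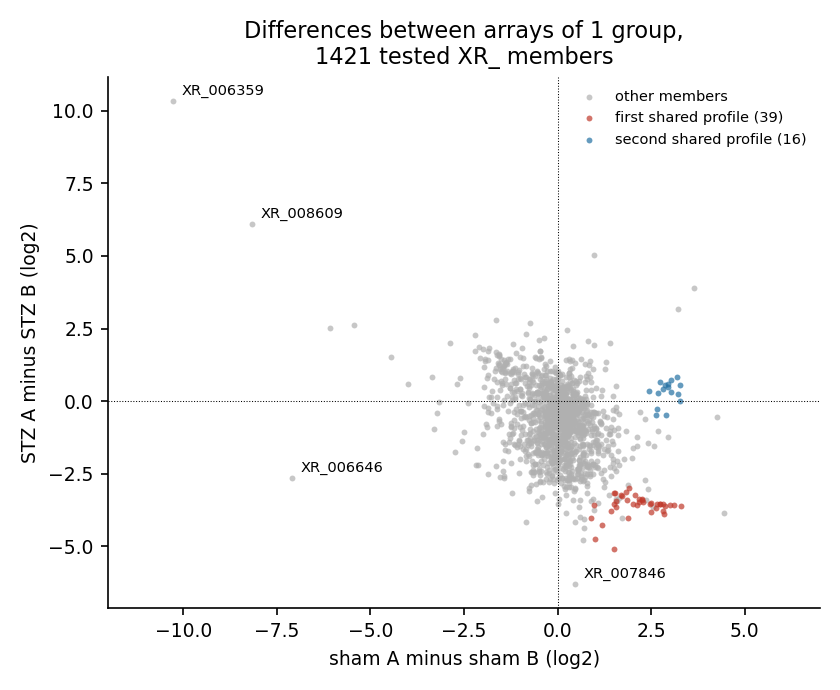
Difference between the 2 arrays of the sham group (x axis, log2) and of the STZ group (y axis, log2) for each of the 1421 tested XR_ members, with the 39 members of the first and the 16 of the second shared pattern in colour. XR_006359 is 10.3 apart in both groups, in opposite directions. The shared patterns were delimited on these differences, so their place away from the origin follows from that choice.

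The members were also grouped by their accession numbers. By the first 3 digits of the accession number (5 blocks from XR_005 to XR_009, of 303, 503, 373, 312 and 211 members), 81.8% to 87.2% of a block were tested. Median levels ran from -3.78 in XR_006 to -3.0 in XR_009, and median changes from 0.13 to 0.25. A change of 1 or more upward was found in 16.5% of tested members in XR_005 and 24.0% in XR_006, and downward in 0.806% in XR_005 and 5.43% in XR_009. The 26 tested curated noncoding probes had changes from -1.26 to 1.19 with a median of -0.10, and their smallest adjusted p was 0.490. Among them Gas5, a host transcript of small nucleolar RNAs, had a change of 0.58 ± 0.54, and H19, an imprinted noncoding RNA, one of 0.39 ± 0.54. Neither passed limma's adjusted test (adjusted p = 0.622 for Gas5 and 0.687 for H19). Gas5 lay at 1.77 and 2.11 on the sham arrays and 2.21 and 3.27 on the STZ arrays.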

How the data were processed

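Total RNA of skin was labelled with Cy3 and hybridised to 1-colour arrays, per the labels' protocols. The deposited intensity of a spot is the background-subtracted processed signal of Agilent's Feature Extraction software (version 11.0.1.1 according to the file headers, 11.0.0.1 per the submitters' processing notes), not normalized between arrays. The deposited median spot and local background intensities served for normexp (offset 50), since the files used here hold no mean signal. Other values, per the file headers, are the deposited spot flags (0 or 1) that mark outliers, saturation, and signal well above background.

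Log2 processed signals less the 75th percentile of noncontrol spots were averaged per probe without outlier-flagged spots (2 members lost a file), and the scans of an array were averaged. The header fields place all 4 arrays on 1 slide, so slide could not be fitted as a block. A probe counted as detected on an array when well above background in both scans. Probes that at least 4 of 8 files held well above background were tested with limma 3.58.1 (lmFit, eBayes, two-sided, R 4.3.3), Benjamini-Hochberg adjusted over 21530 probes. The p tests the change on the 75th percentile scale. The fit was tested on simulated data. Tables and plots were made with Python 3.11.15, pandas 2.3.3, numpy 2.4.6 and matplotlib 3.10.9. With 2 arrays against 2, an exact permutation test cannot go below p = 0.333, and p-values measure only the spread between these arrays. The number of arrays limits the precision.

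The members and lists were chosen with earlier results of these data known. Named members are the 10 each way with the smallest p whose groups do not overlap, the 10 brightest, and the 3 per group with the largest difference between arrays. Members that illustrate the shared patterns and the bounds, and the curated Gas5 and H19, were chosen after their values were seen. No member had a second probe. None of the 1702 XR_ accessions matched the RefSeq table of GRCr8 (14274 of 15321 NM_ and 20 of 27 NR_ did), so members keep their accession and no sequence or coordinate is given. An older build, rn4, is named in the file headers. Replicate numbers did not pair arrays: the deviations of same-numbered arrays correlated at -0.20 over all tested probes and -0.39 over the members.

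The medians over the marker lists were, for those not given beside the results, 1.04 (epidermis, 2 of 6 genes tested), 0.79 (fibroblast, 5 of 6), -0.47 (skeletal muscle, 5 of 5), -2.01 (adipocyte, 4 of 5), -4.75 (erythroid, 4 of 4), -1.96 (Schwann, 3 of 3) and -1.25 (mast cell, 3 of 3). Alternatives covered scaling, background, filter, scans, array block, array weights, spots, bins and each array left out.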

Additional observations from a re-analysis of the deposited data

How the results depend on the processing

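The median change of the members and its difference from NM_ probes of like signal (0.18 and 0.06) moved by less than 1 SD between arrays under each alternative run, over ranges of 0.07 to 0.37 and 0.01 to 0.14. No change turned sign among the 20 members named for the smallest p in each direction. They were chosen with groups that do not overlap, so the order of their groups stays the same whichever array is left out. Their kept sign under those settings follows from that choice and is no test of stability. Of the other named members, whose changes were not called, 9 turned sign under some setting. Without sham B, XR_006359 went from -0.53 to 4.58, XR_008609 from -0.78 to 3.28 and XR_006646 from -2.16 to 1.36. Without STZ B, XR_006359 stood at 4.84, XR_008609 at 2.47 and XR_007846 at -0.04 (from 2.91). The others were the bright XR_006769, XR_007040, XR_007305, XR_008889 and XR_008965, with changes between -0.34 and 0.11 where they turned. Counts moved more. At an unadjusted p under 0.05, members lower went from 14 to 29 with quantile normalization, and with normexp and quantile normalization 45 were higher and 25 lower. The shares of all tested probes beside these counts are given in the results. Members past the adjusted test went from 0 to 2 with arrays centred on their median, where 124 of all 21530 tested probes passed. With the 8 files taken as separate samples, which counts each array 2 times, 403 were higher (28.4%, beside 24.7% of all tested). Lower were 88 (6.19%, beside 15.4%), and 253 were past the adjusted test, as were 5243 of all 21530 tested probes. In the fits without 1 array, the shares of all tested probes called higher and lower moved too. The members' counts in those fits, which follow, can therefore not be read alone. Leaving out 1 array at a time gave 25 to 467 higher, 4 to 27 lower and 0 to 1 past the adjusted test, with the lone array of a group assumed to vary like the other group.

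With a replicate block (the array number) 133 members were higher (9.36%, beside 7.35% of all tested) and 12 lower (0.844%, beside 2.74%), and 0 passed the adjusted test. A crossed replicate block, added after same-numbered arrays were found to deviate in opposite ways, gave 168 higher (11.8%, beside 9.67% of all tested) and 16 lower (1.13%, beside 3.54%). The first spot of each probe alone was also added after the data were seen. With 2 arrays per group, a member's change smaller than its standard error (median 0.57) could not be told from 0. A change above its standard error was not thereby distinct from 0. XR_007207, with a change of 4.25 ± 0.48 in the main fit, had a limma adjusted p of 0.102. Members that the filter left out have no change here.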

Other observations

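Probes other than the predicted noncoding transcripts took part in the patterns over the arrays. XR_006359 was not alone in being far brighter on sham B and STZ A than on sham A and STZ B: Igfals, the coding gene of a circulating binding protein for insulin-like growth factors, lay at -6.33, 6.51, 4.27 and -3.98 on sham A, sham B, STZ A and STZ B. The noncoding transcripts MRAK148606 (0.21, 7.67, 7.49 and 0.69) and MRAK149123 (0.95, 7.74, 7.40 and 1.40) were also brighter on those arrays. All were chosen after their values were seen.

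Of the 27 coding probes with the first shared pattern, 25 had a symbol, and 16 of these (64%) were named as chemosensory receptors, 11 olfactory, 4 vomeronasal and 1 taste. Such symbols made up 20.4% of the 2551 named coding probes with a mean level below -4 and 4.94% of all 12964 named coding probes tested. Tas2r120, a bitter taste receptor, lay at -5.56 on sham A, -8.76 on sham B, -4.19 on STZ A and -0.45 on STZ B. Of the 36 named coding probes with the second shared pattern, 6 (16.7%) carried such a symbol, and Mmp13, Mmp10 and Mmp11, which encode matrix metalloproteinases, were among the others. Unlike the 16 members, of which none had an unadjusted p under 0.05, 7 of these 36 coding probes did (limma, lowest adjusted p = 0.170), and Mmp13, Mmp10 and Mmp11 had changes of 8.42, 4.44 and 2.02. The counts are a description of patterns delimited after the values were seen, and no enrichment was tested.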
